A study of Mus musculus with 7 samples.

Results

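The 10 genes described here, Elane, Mpo, Prtn3, Ctsg, S100a8, S100a9, Ltf, Ngp, Camp and Lcn2, encode proteins of neutrophil granules or, for the S100 pair, of the neutrophil cytosol. They were taken by symbol from the 43346 genes in the deposited counts, and all 10 were found. The counts come from tibial growth plates of 7 male C57BL/6JxCAST/EiJ F1 mice (B6 and CAST below), aged 21 days and untreated. They form a single group, numbered 1, 2, 3, 4, 5, 7 and 8. Each gene has an estimated read count for the B6 allele and one for the CAST allele, so the comparison the design allows is between the alleles within a mouse, and levels between mice are a description.

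Neutrophils arise in the bone marrow and load their granules in a fixed order. Azurophil (primary) granule proteins are made at the promyelocyte stage, specific (secondary) granule proteins at the myelocyte and metamyelocyte stages, and the cytosolic calprotectin subunits through later maturation. The growth plate is cartilage that borders on marrow, and the label calls the tissue growth plate chondrocyte.

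The tissue held more than chondrocytes. The cartilage collagen Col2a1 was at 39420 to 80502 CPM (counts scaled to a common library size with TMM factors) in the 7 mice. The osteoblast marker Ibsp was at 243 to 335 CPM, the osteoclast protease Ctsk at 475 to 1166, the erythroid enzyme Alas2 at 171 to 413 and the B-cell receptor chain Cd79a at 19.2 to 63.6. The 10 granule genes together took 0.162% to 0.348% of the counts of a mouse, whose totals ran from 14098019 to 37849667. None of the mice gave fewer than 398 counts for any of the 10 genes.

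The genes lie on 6 chromosomes (GRCm38, positions from GENCODE release M21), all protein-coding. Prtn3 (chr10:79874476-79883174) and Elane (chr10:79886247-79888215) are neighbours on the plus strand, 3.07 kb apart. S100a8 (chr3:90668978-90670035, plus strand) and S100a9 (chr3:90692632-90695721, minus strand) are 22.6 kb apart. Camp (chr9:109847379-109849617, minus strand), Ngp (chr9:110419747-110423012, plus strand) and Ltf (chr9:111019271-111042767, plus strand) follow each other on chromosome 9 with gaps of 570 kb and 596 kb. Mpo (chr11:87793581-87804413, plus strand), Ctsg (chr14:56099881-56102574, minus strand) and Lcn2 (chr2:32384633-32388252, minus strand) stand alone.

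The 250 bases before each RefSeq start (build GRCm38.p6, 1 start per gene, all 10 genes matched) were searched for letters that blood-cell transcription factors are known to bind. GAGGAA, the core bound by PU.1 and related ETS factors, was searched on both strands. It occurred in 7 of the 10, including 4 of 4 azurophil genes, and in 23.3% of 32851 RefSeq promoter windows of the same length. The longer form GAGGAAGT, which contains the core, occurred in 4 of the 10 and 3 of 4 azurophil genes, against 2.44% of all windows. The stretches around the core in the azurophil genes are shown to let the shared letters be seen, on the strand of the gene, with GAGGAA in capitals and cut where an annotated exon begins.
Elane, chr10:79886203-79886246, plus strand: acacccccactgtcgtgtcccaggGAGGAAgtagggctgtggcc
Mpo, chr11:87793534-87793580, plus strand: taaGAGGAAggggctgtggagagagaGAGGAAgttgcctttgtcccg
Prtn3, chr10:79879548-79879601, plus strand: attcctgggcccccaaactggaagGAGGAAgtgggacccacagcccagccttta
Ctsg, chr14:56102761-56102814, minus strand: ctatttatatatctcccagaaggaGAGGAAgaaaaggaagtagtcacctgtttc
The Prtn3 stretch lies before its RefSeq start but inside the gene as placed by GENCODE above. In Elane and Prtn3 the core is followed by gt, and in Ctsg by ga. Mpo holds the core at 2 places, of which the one nearer the start is followed by gt. The core also occurred, on the opposite strand, in S100a8, Ltf and Lcn2, where the only match in Lcn2 lies in an annotated exon.

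TTNNGNAA, which holds the ends of the site bound by C/EBP factors, was also searched on both strands. It occurred in 5 of the 10 genes, in none of the 4 azurophil genes, and in 36.8% of all windows. No match of TTNNGNAA shared a base with a match of GAGGAA in these genes. A stretch from each of 3 genes is shown with the matches in capitals, whichever strand the match is on.
S100a9, chr3:90695820-90695875, minus strand: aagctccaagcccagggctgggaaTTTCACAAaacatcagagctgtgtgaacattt
Ltf, chr9:111019193-111019248, plus strand: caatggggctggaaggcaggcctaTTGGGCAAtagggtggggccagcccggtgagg
Ngp, chr9:110419646-110419737, plus strand: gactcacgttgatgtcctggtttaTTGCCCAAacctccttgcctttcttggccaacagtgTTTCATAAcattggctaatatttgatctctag
S100a8 and Lcn2 were the other genes with a match, that of Lcn2 in an annotated exon, and Camp held neither set of letters. These matches describe letters. Binding was not measured, and a part of these letters in the levels was not tested.

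Levels are compared between genes only as CPM per kb of annotated exon. On that scale the calprotectin pair was highest, 3 of the specific granule genes followed, and the 4 azurophil genes were in the lower part of the order. S100a9, the larger calprotectin subunit, was at 929 ± 226 CPM per kb (SD, n = 7), and S100a8, the smaller subunit, at 765 ± 229. S100a9 was above S100a8 in 7 of 7 mice, by a factor of 1.09 to 1.36. With the length of the longest transcript in place of the union of exons, S100a8 came to 1065 CPM per kb and S100a9 to 934, so their order depends on the length used.

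The specific granule genes spanned a wide range. Camp, which encodes the cathelicidin antimicrobial peptide, was at 274 ± 89.8 CPM per kb, and Ngp, a cystatin-related neutrophilic granule protein, at 264 ± 83.3. Camp was above Ngp in only 4 of 7 mice, so these neighbours in the order did not separate. Ltf, the iron-binding lactoferrin, was at 89.3 to 182 CPM per kb, below Ngp in 7 of 7 mice. Lcn2, the siderophore-binding lipocalin, was lowest of the specific granule genes at 54.4 ± 16.8.

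Among the azurophil genes, Mpo, the myeloperoxidase that makes hypochlorous acid, was at 60.5 ± 19.2 CPM per kb. It was above Lcn2 in 7 of 7 mice, by a factor of at least 1.04, an order that reversed in the means with longest-transcript lengths (75.3 for Mpo and 104 for Lcn2). The serine proteases were lower. Prtn3 (proteinase 3) was at 28.1 ± 10.4 CPM per kb and Elane (neutrophil elastase) at 27.9 ± 10.4, and Prtn3 was the higher in 5 of 7 mice. Their closeness depends on the length used, since with longest-transcript lengths the means were 47.5 for Prtn3 and 27.9 for Elane. Ctsg (cathepsin G) was lowest at 20.5 ± 6.71 and was below Elane in 7 of 7 mice.

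**Figure D1:**
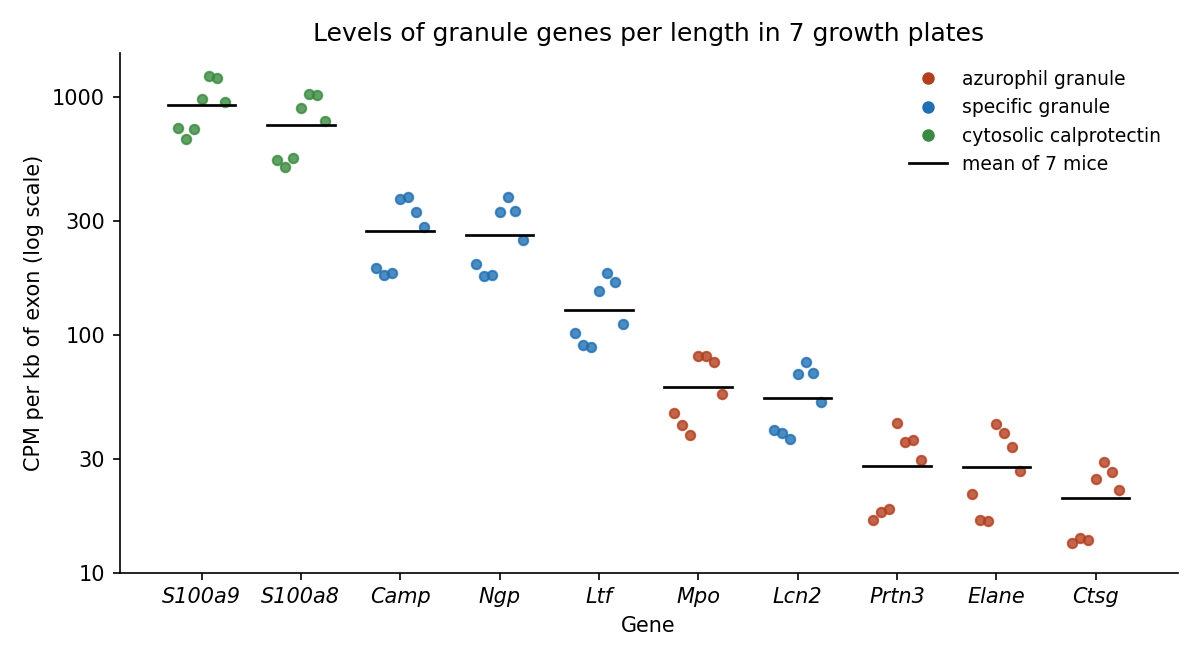
CPM per kb of exon on a log axis for each of the 10 genes, ordered by mean, with 1 point per mouse (n = 7) and a line at the mean. The calprotectin genes lie highest, the azurophil genes lie between 20.5 and 60.5 on average, and the highest point of a gene is 1.83 (S100a9) to 2.56 (Elane) times its lowest.

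The levels differed between mice and did so alike for all 10 genes. The summed level was 1830, 1672 and 1721 CPM in mice 1, 2 and 3, against 2948, 3344 and 3132 CPM in mice 4, 5 and 7, with mouse 8 between them at 2384. Each of the 10 genes was higher in mice 4, 5, 7 and 8 than in mice 1, 2 and 3. In bulk tissue, fewer neutrophil-lineage cells and less RNA per cell cannot be told apart, so these values are amounts of RNA only.

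Mpo illustrates the azurophil genes. Its level was 161, 143 and 130 CPM in mice 1, 2 and 3, 280, 279 and 263 CPM in mice 4, 5 and 7, and 193 CPM in mouse 8. Elane ran from 16.2 to 41.3 CPM with a median of 26.4, and its highest mouse was 2.56 times its lowest. Prtn3 ran from 29.0 to 73.5 CPM and Ctsg from 13.7 to 30.1. Elane, Mpo and Prtn3 were highest in mouse 4, whereas the other 7 genes were highest in mouse 5.

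Among the specific granule genes, Ngp was likewise low in mice 1, 2 and 3 and between in mouse 8, but was highest in mouse 5. It was at 242, 217 and 219 CPM in mice 1, 2 and 3, at 401, 465 and 407 in mice 4, 5 and 7, and at 305 in mouse 8. Ltf ran from 308 to 629 CPM, Camp from 135 to 287 and Lcn2 from 95.4 to 201. S100a8 ran from 352 to 716 CPM. S100a9 had the narrowest range of the 10, from 349 to 638 CPM, or 1.83-fold.

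The coefficient of variation between mice was 24.4% to 37.3%. That of counting error, with each count taken as a separate read, was between 0.852% (S100a8) and 4.26% (Ctsg). The labels give an average of 6700000 read pairs per sample, fewer than the deposited totals, so a count may be less than an independent read and counting error, here and for the allele ratios below, is a lower limit. Copies made by PCR are not independent either. The SD of log2 CPM between mice had a median of 0.47 over the 10 genes and of 0.19 over the 15111 genes that reached 10 counts in each of the mice. S100a9, with an SD of 0.35, varied more than 85.9% of those genes, and Camp, with 0.49, more than 96.0%.

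Proportions within the group moved less than the levels. They are ratios of total counts with no scaling by length, so they describe change between mice and do not compare levels between genes. The azurophil sum was 0.253 (mouse 3) to 0.302 (mouse 4) of the specific granule sum. Lcn2 was 0.444 ± 0.0130 of Ngp (SD, n = 7), a ratio whose highest value was 1.09 times its lowest. The widest of the ratios examined was Elane over Prtn3, 0.503 to 0.725, although these neighbouring genes encode related proteases.

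**Figure D2:**
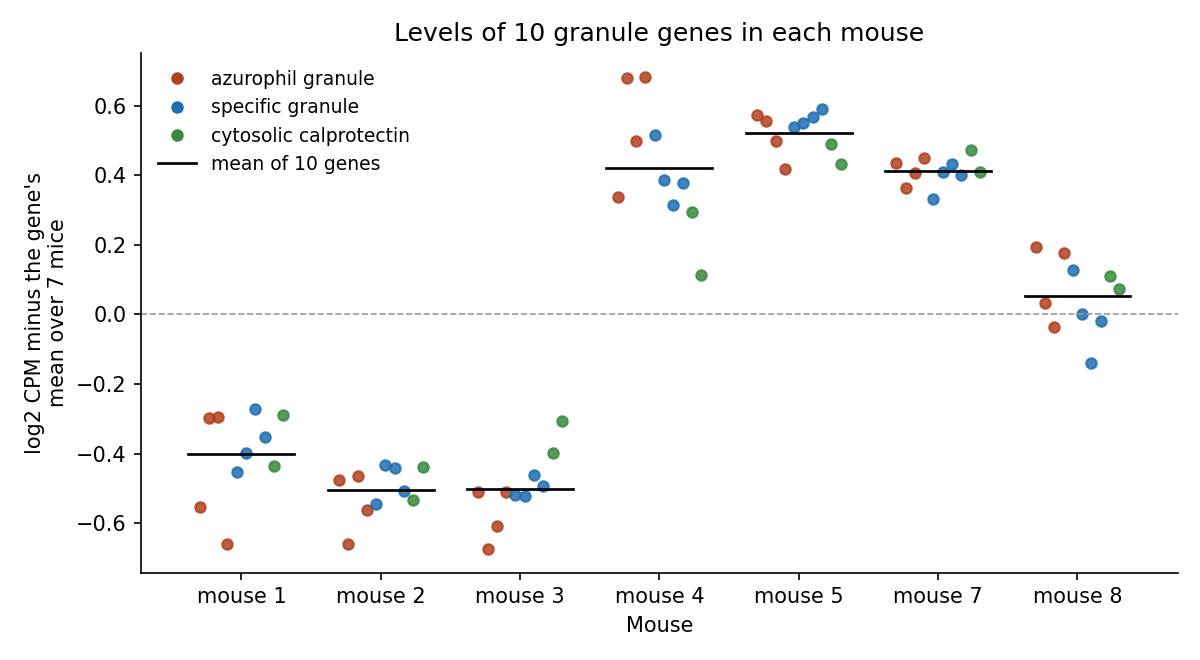
For each mouse, the log2 CPM of each gene minus the mean of that gene over the 7 mice, with a line at the mean of the 10 genes. Mice 1, 2 and 3 lie at means of -0.40 to -0.51, mice 4, 5 and 7 at 0.41 to 0.52 and mouse 8 at 0.05, and in mouse 4 the azurophil genes lie above S100a8 and S100a9.

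Correlations of log2 CPM across the 7 mice were computed for the 45 pairs of granule genes together with 100 pairs of a granule gene and a marker of another cell type, with exact two-sided permutation tests adjusted by Benjamini-Hochberg over all of these pairs. Pearson's r of the 45 pairs was 0.886 to 0.996 (median 0.963) and Spearman's rho was 0.714 to 1. By r, 43 of the 45 had an adjusted p under 0.05, with adjusted exact permutation p values of 0.0144 to 0.0665. By rho, 16 did. Without the 2 mice farthest from the median of the first gene, r stayed positive in all 45 pairs, from 0.762 to 0.999. The pairs share their libraries, and the mice lie near a low and a high level with mouse 8 between. Without mouse 8, none of the 45 had an adjusted p under 0.05 (exact permutation test, smallest 0.0671) while r was 0.886 to 0.997. The relation within the 3 low or the 3 high mice has too few samples to test.

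The highest r was between the specific granule genes Ngp and Lcn2 (r = 0.996, rho = 0.964, adjusted exact permutation p = 0.0173). Elane and Mpo ranked the 7 mice identically (r = 0.988, rho = 1, adjusted exact permutation p = 0.0144). The lowest were Prtn3 with S100a9 (r = 0.886, adjusted exact permutation p = 0.0502) and Prtn3 with Ltf (r = 0.888, adjusted exact permutation p = 0.0665), the 2 pairs that did not pass.

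Depth differed between mice, and its part in the levels was not tested beyond these values. Total counts correlated with the 10 genes at r of -0.288 to -0.459, with no exact permutation p under 0.315. Mouse 5 had both the most counts and the highest summed level, and mouse 7 the fewest counts and the second highest level. Without those 2 mice, r over the other 5 was -0.866 to -0.987. With total counts regressed out, r of the 45 pairs was 0.870 to 0.996 and all 45 had an adjusted permutation p under 0.05. That p is approximate, not exact, because residuals of a fit were permuted.

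Other marrow genes followed the same mice in part. Alas2, of haem synthesis in red cell precursors, had r of 0.778 to 0.961 with the 10 genes, 7 of them with an adjusted exact permutation p under 0.05. The summed erythroid list ran from 8477 CPM in mouse 3 to 20097 in mouse 5, with 13 of 14 genes found. The B-lineage list (12 of 12 genes) ran from 206 to 482 CPM, and Cd79a gave r of 0.585 to 0.742 with none of 10 passing. The endothelial adhesion molecule Pecam1 ran the other way, from 84.0 CPM in mouse 3 to 61.2 in mouse 4, with r of -0.873 to -0.982 and 8 of 10 passing by the same test. Pecam1 was the extreme of its list. Against the mean centred log2 level of the 10 genes, and with no test, the 8 endothelial genes ran from r = -0.958 (Pecam1) to 0.238 (Vwf).

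The single markers tested for macrophages and skeletal cells gave no relation that passed. Csf1r, the macrophage growth factor receptor, had r of 0.0496 to 0.204. Col2a1 had r of -0.297 to 0.0735, Ibsp of -0.794 to -0.547 and Ctsk of -0.712 to -0.485, with none of 10 passing for any of them. The megakaryocyte chemokine Pf4, the eosinophil protein Prg2 and the muscle kinase Ckm likewise had none of 10 passing. Genes of a list did not all follow its single marker. Against the mean centred log2 level of the 10 genes, and with no test, the monocyte and macrophage list ran from r = -0.101 (Cd68) to 0.979 (Ly6c2, a surface antigen of monocytes), and the osteoblast list from -0.755 (Dmp1) to 0.640 (Bglap2). The part of tissue sampling in these levels was not tested.

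**Figure D3:**
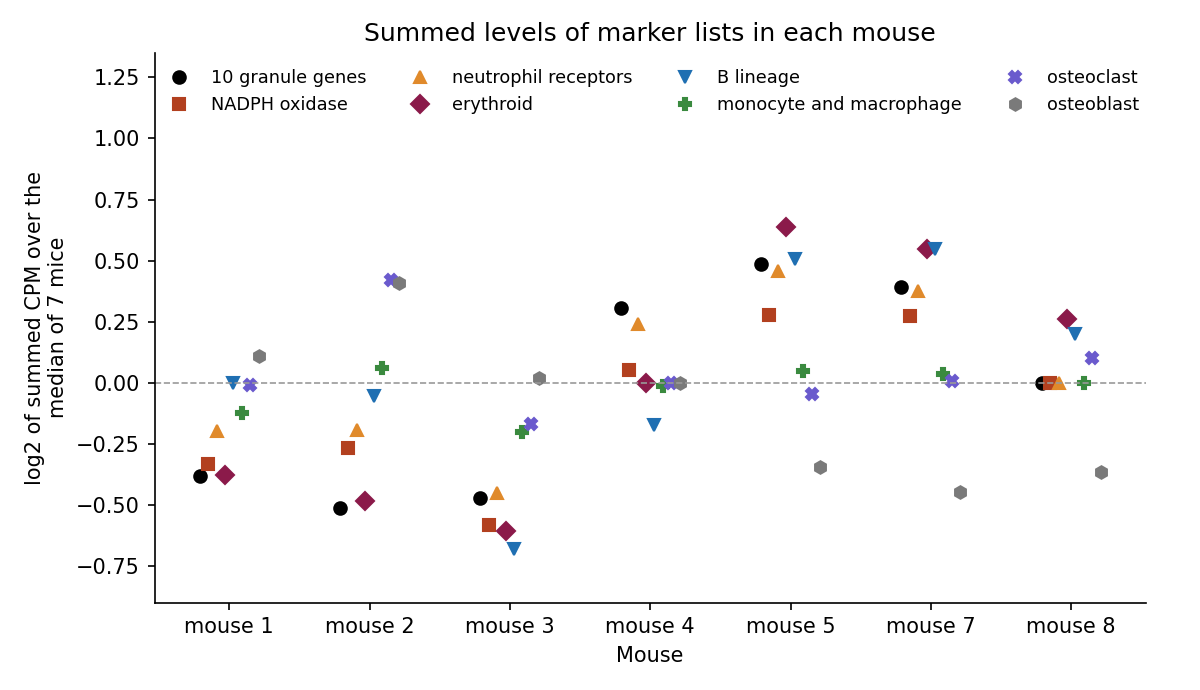
Summed CPM of 8 gene lists in each mouse, as log2 over the median of the 7 mice. The 10 granule genes, NADPH oxidase genes, neutrophil receptors and erythroid genes are lowest in mice 1, 2 and 3 and highest in mouse 5, the B-lineage list is highest in mouse 7, and the osteoblast list is highest in mouse 2.

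Further neutrophil genes were read from lists of related function. The NADPH oxidase genes, whose complex makes superoxide at the phagosome, summed to 229 to 416 CPM, and the receptors and adhesion molecules to 239 to 449 CPM. Both lists were lowest in mouse 3 and highest in mouse 5. The summed list of other granule and secreted proteins was also lowest in mouse 3 (2599 CPM) but highest in mouse 2 (3661 CPM), with mouse 5 at 3116 CPM, and Mmp9 alone made up 1696 to 2830 CPM of it. Against the mean centred log2 level of the 10 genes, 3 of 6 oxidase genes, 7 of 12 receptors and 8 of 17 other granule genes with enough counts had r over 0.9, against 2.50% of 11158 protein-coding genes. Of 13 erythroid genes 6 did, of 12 monocyte and macrophage genes 1 and of 10 B-lineage genes 0. An r over 0.9 was thus not particular to neutrophil genes. Of 9 granulocyte transcription factors 1 did, Cebpe (r = 0.930), needed for specific granules, while the PU.1 gene Spi1 had r = 0.757 and Runx1 r = -0.705.

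Some granule-associated genes did not follow. Mmp9, the gelatinase B of neutrophil granules and also of osteoclasts, was at 1696 to 2830 CPM with r = -0.461, and Ctsc, the dipeptidyl peptidase that activates azurophil proteases, was at 33.0 to 41.5 CPM with r = -0.855. The azurophil-stage gene Ms4a3 had r = 0.966. The cystatin-like Stfa1, Stfa2, Stfa2l1 and Stfa3 averaged at most 3.29 counts per mouse.

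The 10 protein-coding genes most like the group, by Pearson's r with the mean centred log2 level over the 7 mice, were Itgb2l (r = 0.991), Hk3 (0.987), Ly6g (0.986), 1700037H04Rik (0.985), Fcnb (0.984), Txnrd2 (0.984), Sema4a (0.983), Slc38a5 (0.983), Pglyrp1 (0.981) and Adpgk (0.979). They are the highest of 11158 candidates, and so are given as a description. Ly6g is the surface antigen by which mouse neutrophils are recognised, and it ran from 8.45 to 19.8 CPM. Pglyrp1, a peptidoglycan-binding granule protein, had a median of 17.6 CPM.

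The alleles were compared next. Across all 20239 tested genes, edgeR's likelihood-ratio test with Benjamini-Hochberg adjustment called 6978 (34.5%) at an FDR under 0.20. CAST was higher in 3240 of them (16% of tested genes) and B6 in 3738 (18.5%). These include genes of the X chromosome, of which a male has a single copy. A fit of autosomal genes only called 6205 of 19295, with CAST higher in 3008 and B6 in 3197. Among the 10 granule genes, 2 were called, Prtn3 with CAST higher and Ngp with B6 higher. The median log2 fold change (CAST over B6) was 0.02 over the 10 genes and 0.01 over all tested genes. With the mouse as a block, which uses the fact that both alleles come from the same animal, 6 of the 10 were called, against 45.3% of all tested genes. The tested genes include ones with lower counts than these 10. By the block fit, the other lists ran from 3 of 8 endothelial genes called to 13 of 14 chondrocyte genes.

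Ngp had the widest called difference. Its B6 counts in mice 1, 2, 3, 4, 5, 7 and 8 were 4964, 3807, 3801, 4699, 11465, 3684 and 4501, and its CAST counts in the same order were 3076, 2429, 2420, 2771, 6846, 2253 and 2513. B6 was higher in 7 of 7 mice, although the ranges of the alleles over mice overlapped. The log2 fold change was -0.71 (SE 0.203, edgeR FDR 0.00306), and B6 held 62.3% of all Ngp counts. The log2 ratio of the mice ran from -0.84 to -0.65, an SD of 0.0682.

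Prtn3 showed the opposite direction in 7 of 7 mice. Its B6 counts in the same order of mice were 382, 374, 393, 611, 1004, 347 and 489, and its CAST counts were 581, 517, 519, 757, 1406, 564 and 701. The log2 fold change was 0.51 (SE 0.239, edgeR FDR 0.116), and the log2 ratio of the mice ran from 0.31 (mouse 4) to 0.70 (mouse 7). The call was not kept in every setting, with an FDR of 0.227 without mouse 7, 0.204 without mouse 8 and 0.229 by DESeq2, while the fold change stayed between 0.46 and 0.56 in every fit that left out a mouse. With the mouse as a block its edgeR FDR was 4.85e-24. Plppr3, on the opposite strand, overlaps Prtn3, and whether the counting used strand is not given in the sources used here.

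The exact two-sided sign-flip permutation test of the log2 ratios, with the mouse as the unit, gave p = 0.0156 for Ngp and Prtn3 and also for Ctsg, S100a9 and Camp, the smallest p that 7 mice allow. These 5 genes had the same direction in all 7 mice, which 24.6% of tested genes did. The tested genes include ones with lower counts than these. Among the other lists, the share ran from 1 of 10 granulocyte transcription factors to 10 of 12 monocyte and macrophage genes. S100a9 had CAST higher, with log2 ratios of 0.16, 0.23, 0.09, 0.48, 0.37, 0.25 and 0.20 in mice 1, 2, 3, 4, 5, 7 and 8. Its fold change of 0.29 (SE 0.164) had an edgeR FDR of 0.223 without the block and 3.32e-07 with it. Its ratio varied between mice with an SD of 0.133, which was 4.91 times the SD that counting alone would give if every read told the alleles apart.

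Ctsg and Camp had small differences of opposite direction. The log2 ratio of Ctsg ran from 0.06 to 0.27 with CAST higher, and its edgeR FDR was 0.668 without the block and 0.00116 with it. That of Camp ran from -0.34 to -0.12 with B6 higher, and its edgeR FDR was 0.614 without the block and 1.33e-07 with it. The sign of all 5 genes held when each ratio was set against the ratio of the mouse over all autosomal counts.

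S100a8 was the sixth gene called with the block, at an FDR of 0.193. Its B6 and CAST counts were equal in every mouse, to a tolerance of 1e-06, as they were for 1202 of the 20239 tested genes. The block fit gave it a log2 fold change of 0.02 that became 0 with 1 library size per mouse, where the FDR was 1. Equal estimates give no measure of an allele difference, and whether any S100a8 read told the alleles apart was not tested.

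Elane was the one gene whose alleles differed widely in single mice without a shared direction. The log2 ratio favoured B6 in mouse 1 (-0.07), mouse 2 (-0.72), mouse 4 (-0.41) and mouse 5 (-0.20), and CAST in mouse 3 (0.15), mouse 7 (0.88) and mouse 8 (0.48). The counts behind the extremes were 292 for B6 and 177 for CAST in mouse 2, and 170 for B6 and 314 for CAST in mouse 7. The SD of its ratio was 0.543, or 4.57 times the counting SD, against a median SD of 0.259 over the genes that reached 10 counts in each of the mice. The exact sign-flip permutation test of its mean ratio gave p = 0.938, and its neighbour Prtn3 kept an SD of 0.128.

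Mpo, Ltf and Lcn2 had ratios near 0 in every mouse. Those of Mpo ran from -0.04 to 0.07, of Ltf from -0.08 to 0.09 and of Lcn2 from -0.16 to 0.06. None of them was called with or without the block, and their edgeR FDR was 1 without it. The total count of Mpo was not whole, to a tolerance of 0.0001, in 7 of 7 mice and that of Prtn3 in 1, which marks reads divided between genes, while the other 8 genes had whole totals.

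**Figure D4:**
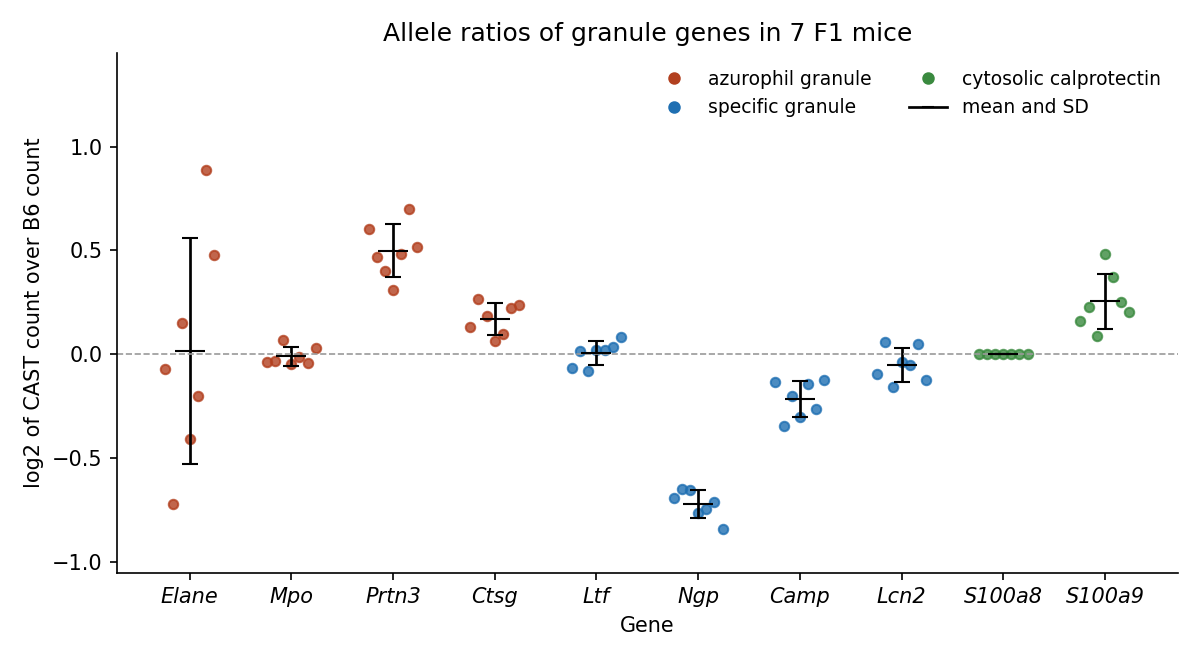
The log2 of the CAST count over the B6 count in each mouse (points, n = 7) for the 10 genes, with the mean and SD in black and 0 dashed. All Ngp and Camp points lie below 0, all Prtn3, Ctsg and S100a9 points above 0, S100a8 lies at 0, and Elane runs from -0.72 to 0.88.

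Allele differences of the related neutrophil lists were read in the same fit. Of the other granule and secreted proteins 7 of 22 tested were called, of the receptors 5 of 18, of the oxidase genes 3 of 6 and of the granulocyte transcription factors 2 of 10, beside 34.5% of all tested genes. CAST was higher for Olfm4 (log2 fold change 0.88, edgeR FDR 0.00206) and for Padi4, the histone-citrullinating enzyme (0.82, edgeR FDR 0.00101). B6 was higher for Mmp9 (-0.68, edgeR FDR 5.42e-06) and Mmp8, the neutrophil collagenase (-0.42, edgeR FDR 0.118). The receptor genes Mrgpra2a (4.67, edgeR FDR 7.32e-38) and Mrgpra2b (1.92, edgeR FDR 1.08e-09) had CAST higher, but their totals were not whole in 7 of 7 mice, which marks reads divided between genes. Clec4d (-0.66, edgeR FDR 0.172) had B6 higher.

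In the oxidase, Ncf4 (0.63, edgeR FDR 0.00370) and Ncf1 (0.29, edgeR FDR 0.142) had CAST higher, but the totals of Ncf1 were not whole in 7 of 7 mice. Cybb, the catalytic subunit, had a mean of 715 B6 counts and 5.54 CAST counts, and it lies on the X chromosome, of which a male has a single copy. Among the factors, Cebpb had CAST higher (0.38, edgeR FDR 0.144), with totals not whole in 7 of 7 mice, and Irf8 had B6 higher (-0.28, edgeR FDR 0.185).

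Within 100 kb of the 10 genes, 44 other genes reached 10 counts in each of the mice, and 16 of them were called, 10 with CAST and 6 with B6 higher, a share close to the 5430 called of 15111 genes at the same minimum. Around Prtn3 and Elane, CAST was higher for Ptbp1 (0.36), Cfd, the complement factor D (0.25), and Med16 (0.42). B6 was higher for Fstl3 (-0.75, from means of 37.8 B6 and 22.9 CAST counts), Wdr18 (-0.28) and the noncoding E130317F20Rik (-0.61). Wdr18 nonetheless had CAST higher in 2 mice. Around Ngp, CAST was higher for Klhl18 (0.23), 2.91 kb away, and for Elp6 (0.64), the reverse of Ngp, whereas the unclassified 5830462I19Rik (-0.81) shared its direction. Mcpt8, a basophil protease 14.6 kb from Ctsg, had CAST higher (1.41), as did Ccrl2 near Ltf (0.74). The totals of Ptbp1, Med16, Fstl3 and 5830462I19Rik were not whole in 7 of 7 mice, which marks reads divided between genes.

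Beside the S100 pair, S100a6 (0.33) and S100a3 (2.53, from means of 5.16 B6 and 29.0 CAST counts) had CAST higher. S100a4 was not called (0.03), with CAST higher in 3 mice, B6 in 0 and equal counts in the others. Near Camp, Map4 (0.21) had CAST higher and the pseudogene 3000002C10Rik (-0.64) B6 higher, both with totals not whole in 7 of 7 mice. Near Mpo, Rnf43 (-1.08, from means of 17.0 B6 and 7.68 CAST counts) had B6 higher. Epx, the eosinophil peroxidase, was at 0.22 with CAST higher in 7 of 7 mice and an edgeR FDR of 0.554. None of the 8 neighbours of Lcn2 was called. Among them Ptges2, Slc25a25 and Naif1 had equal allele counts in every mouse, which give no measure of an allele difference.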

How the data were processed

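Total RNA of tibial growth plates from 7 F1 mice was sequenced as 2 × 75 bp reads from a stranded, rRNA-depleted library. The authors used Bowtie and a transcriptome holding both parental alleles (mm10), with at most 3 mismatches, and deposited estimated counts per gene and allele from EMASE, not normalized. Each read end and lane was processed separately, and a read matching more than 1 allele or gene is split between them, so counts need not be whole or independent. Processing notes also name SAMtools, and versions are not given in the sources used here.

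Estimates were rounded to 9 decimals, since residues of the estimation would otherwise count as expressed. GENCODE M21 names 98.0% of the gene identifiers. The test took the 20239 genes for which each mouse had some count on either allele. Counts were rounded to whole numbers and compared between alleles with edgeR 4.0.16 (TMM, estimateDisp, glmFit, glmLRT, allele alone in the design) in R 4.3.3, with Benjamini-Hochberg adjustment over all tested genes and calls at an FDR under 0.20. Both alleles come from the same mouse, so the mouse as a block was an alternative. Log2 ratios used a pseudocount of 0.5 and exact sign-flip permutation tests over 128 sign patterns. Levels are CPM from both alleles with TMM library sizes. Exact permutation tests of correlations used all 5040 orders of the mice. DESeq2 1.42.0, other library sizes and filters, unrounded counts and leaving out mice were alternatives. The fit was tested on simulated counts. Totals were 14098019 to 37849667 counts per mouse.

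The 10 genes and all lists were chosen with earlier results of these data known. Named outside them are, in each neutrophil list, at most 2 called genes in each direction with the largest change, the 10 genes most alike (mean of at least 100 counts, at least 10 in every mouse), and genes within 100 kb of at least 10 counts in every mouse, with further list genes given as values. Replicates are separate mice. The labels give no batch.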

Additional observations from a re-analysis of the deposited data

How the results depend on the processing

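Of the 10 granule genes, 2 were called for an allele difference. The count was 1 at an FDR under 0.05, by DESeq2, without mouse 7 and without mouse 8, with a range of 1 to 2 over the fits that left out a mouse. With the mouse as a replicate block it was 6 by the likelihood-ratio test and 5 by the quasi-likelihood test, and 5 with the block and 1 library size per mouse, an alternative chosen after seeing the data. No direction reversed for a called gene. The genes with 1 direction in all mice numbered 5 under the pseudocounts of 0.1 and 1. On centred ratios the same 5 kept 1 direction. S100a8, whose allele counts were equal in every mouse, then also lay on 1 side, below the autosomal ratio in 7 of 7 mice, through the centring alone.

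Of the 45 pairs of granule genes, 43 passed. Leaving out a mouse gave 0 to 43, the 0 being without mouse 8. Without mice 5 and 7, chosen after seeing the data as the highest, 0 passed over 5 mice (smallest adjusted exact permutation p = 0.115) and r was 0.863 to 0.993. The cause of these changes was not tested. Genes called over the whole table numbered 6978 and stayed within 1.5 times in every alternative run, from 4777 to 9180. Ctsg and Elane had the smallest counts per allele and mouse of the 10 genes, 184 and 170. The SD of the log2 ratio between mice was 0.586 times the counting SD for Ctsg and 4.57 times for Elane. The number of reads that told the alleles apart was not measured.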
